A study of Mus musculus with 6 samples.

Results

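The insulin-like growth factor (IGF) system of mouse liver was examined through 9 genes: the IGF-binding protein genes Igfbp1, Igfbp2, Igfbp3, Igfbp4, Igfbp5, Igfbp6 and Igfbp7, and the receptor genes Igf1r and Igf2r. They were taken by symbol from a deposited table of 16603 genes, and all 9 had a row. RNA from whole liver was sequenced in 6 libraries, of which 3 are labelled wild-type and 3 are labelled Mdr2 knockout, with no treatment named. Abcb4 encodes Mdr2, which hepatocytes use to export phosphatidylcholine to bile, and mice without it develop chronic bile duct injury and fibrosis. Neither strain, age, sex nor allele is labelled. Whether the 3 libraries of a group are 3 animals is not labelled either, and every p-value therefore reflects only variation among these libraries, some of which could be technical.

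The liver is the main source of circulating IGF1. IGF1 and IGF2 signal through the tyrosine kinase IGF1R, whereas IGF2R, the cation-independent mannose 6-phosphate receptor, takes IGF2 and newly made lysosomal enzymes to lysosomes and carries no kinase. In plasma most IGF travels in ternary complexes with IGFBP3 or IGFBP5 and the acid-labile subunit encoded by Igfals, a product of hepatocytes. IGFBP1, IGFBP2 and IGFBP4 form smaller binary complexes, IGFBP6 prefers IGF2, and IGFBP7 binds IGFs only weakly and is known as a protein of vessel walls and matrix. Mature hepatocytes hold little IGF1R, and Igfbp1 is a hepatocyte gene that insulin represses and fasting and stress induce.

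The libraries held 17100393 to 18124467 counts, and 12612 genes passed the low-count filter. Abcb4 itself was not lower in the libraries labelled knockout: it had 10071, 10188 and 8347 counts in replicates 1, 2 and 3 labelled Mdr2-knockout and 5190, 5776 and 4330 in replicates 1, 2 and 3 labelled wild-type (log2 fold change 0.57, edgeR adjusted p = 0.00389). The count covers the whole gene and the labels do not say which part is deleted, so groups are named by their labels throughout. Directions also rest on reading the table's columns N as wild-type, by elimination from columns M, whose letter fits Mdr2. Hepatocyte markers were abundant in all 6 libraries, with a summed level of 124000 to 134000 CPM (counts per 1000000) in libraries labelled wild-type and 77500 to 79000 CPM in those labelled Mdr2-knockout. CPM are scaled here by the trimmed mean of M-values (TMM), and scaling by total counts instead raised the median log2 fold change over the tested genes by 0.293. That shift is as large as several of the differences below, so values under total counts are given where they alter the direction or call of a named gene or the counts of a list.

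Upstream sequence is shown for 3 members: Igfbp1, whose level varied most between libraries of a group among the 8 tested members, Igfbp4, the member with the highest level, and Igfbp7, which was higher in each labelled Mdr2-knockout library. Each run is the 250 bases before the RefSeq start site (GRCm38.p6), written 5′ to 3′ on the gene's own strand. They lie at chr11:7197537-7197786 (plus strand), chr11:99040994-99041243 (plus strand) and chr5:77408046-77408295 (minus strand). Capitals mark matches on either strand to CAAAACA, the short element through which insulin acts on the Igfbp1 promoter, GTAAACA, a FoxO consensus, TATAAA, the TATA box, or GGGCGG, the GC box.
Igfbp1 promoter: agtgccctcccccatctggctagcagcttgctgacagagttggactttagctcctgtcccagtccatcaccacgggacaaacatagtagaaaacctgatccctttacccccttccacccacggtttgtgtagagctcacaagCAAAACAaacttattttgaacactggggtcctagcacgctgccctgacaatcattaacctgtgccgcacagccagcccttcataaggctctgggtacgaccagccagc
Igfbp4 promoter: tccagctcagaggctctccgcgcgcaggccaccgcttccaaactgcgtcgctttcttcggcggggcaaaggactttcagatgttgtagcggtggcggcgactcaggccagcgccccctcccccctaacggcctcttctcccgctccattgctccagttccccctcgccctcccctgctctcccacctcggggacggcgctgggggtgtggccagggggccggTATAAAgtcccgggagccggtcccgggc
Igfbp7 promoter: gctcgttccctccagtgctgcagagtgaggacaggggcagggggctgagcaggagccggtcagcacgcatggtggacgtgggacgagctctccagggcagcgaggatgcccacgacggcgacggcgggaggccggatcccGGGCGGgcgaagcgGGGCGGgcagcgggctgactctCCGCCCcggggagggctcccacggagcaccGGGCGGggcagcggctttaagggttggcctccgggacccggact
The 3 stretches differ in kind. The Igfbp1 stretch holds 53.2% G and C and 1 CAAAACA, which begins 108 bases before the start and is found in 5.56% of the 32851 RefSeq promoter windows of this length. The Igfbp4 stretch has 69.2% G and C and a TATAAA that begins 28 bases before the start, a motif held by 12.4% of all windows. The Igfbp7 stretch has 74% G and C, 4 copies of GGGCGG and no TATAAA; at least 1 GGGCGG stands in 32.7% of all windows. No stretch of the 9 members held GTAAACA, which 3.17% of windows hold. The GC box also stood in the first Igfbp2 window and in those of Igf1r (2 copies) and Igf2r (3 copies), and no marked motif overlapped another in the 3 stretches shown. A match is a description of letters and shows no binding.

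Igfbp4 mRNA was the most abundant of the 9, and the levels of the others fell over several orders below it. Compared per length as FPKM, the authors' counts per length and library total, Igfbp4 lay at 510.9 to 541.2 in libraries labelled wild-type and 512.8 to 534.3 in those labelled Mdr2-knockout. Igfbp2 followed at 150.4 to 212.6 and 132.4 to 184.8 FPKM, and their ranges were apart in all 6 libraries. Igfbp1 (26.9 to 101.6 and 42.3 to 109.9 FPKM) and Igfbp7 (31.1 to 37.7 and 76.5 to 95.5 FPKM) came next and changed places between libraries. Igf2r stood at 8.76 to 9.35 and 9.59 to 10.6 FPKM. Below it were Igfbp3 at 2.08 to 3.26 and 2.36 to 6.13 FPKM and Igfbp5 at 1.13 to 1.66 and 1.35 to 2.49 FPKM. Igfbp3 was above Igfbp5 in each library although their ranges met. Igfbp6 (0.0881 to 0.227 and 0.214 to 1.28 FPKM) and Igf1r (0.193 to 0.228 and 0.272 to 0.573 FPKM) were lowest and could not be ordered, since which was higher differed between libraries.

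**Figure D1:**
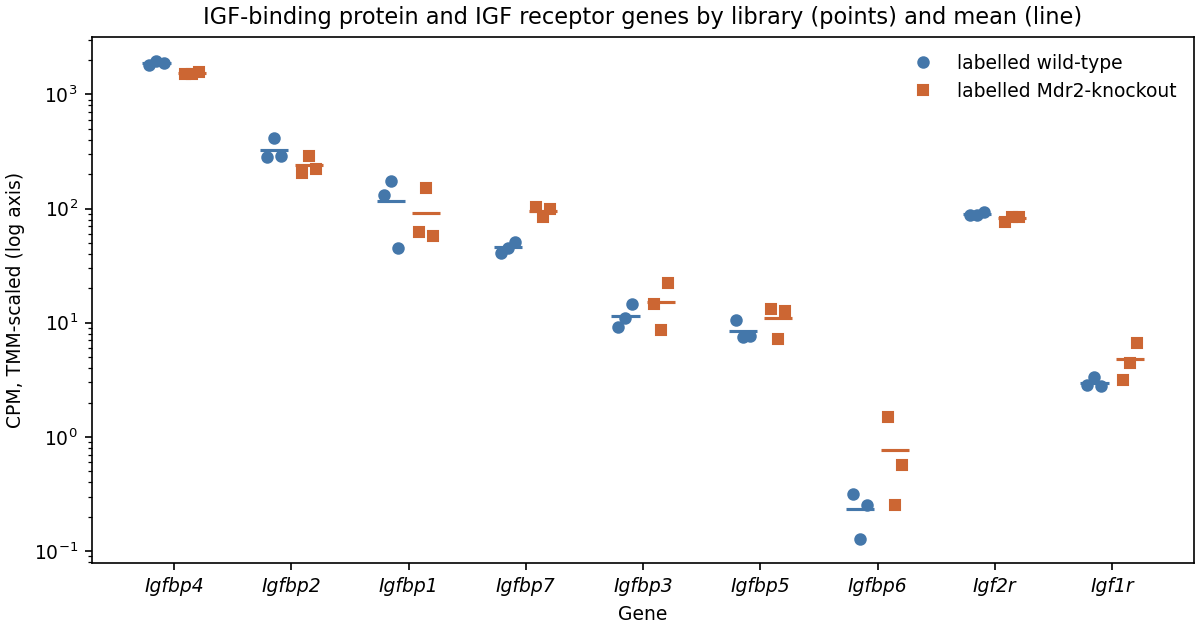
TMM-scaled CPM on a log axis for each of the 9 genes, with 1 point per library (blue circles, labelled wild-type; orange squares, labelled Mdr2-knockout) and a line at each group mean (n = 3). Igfbp7 is the member whose 3 orange points all lie well above the blue ones, and Igfbp1 spreads widely within both groups.

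Of the 8 members tested, 1 was higher, 1 was lower and 6 did not pass at an edgeR adjusted p under 0.05. Over all tested genes 37.1% were called, 20.9% higher and 16.3% lower, so the members' counts do not exceed the background. On TMM-scaled CPM the groups did not overlap for 3 of the 8: Igfbp7 was higher, and Igfbp4 and Igf2r were lower. Over all tested genes this held for 51.3% (27.6% higher and 23.7% lower). The list depends on the scaling. On FPKM, scaled by library totals, Igfbp4 overlapped, and Igf2r and Igf1r were higher in each labelled Mdr2-knockout library than in any labelled wild-type. The share of all tested genes without overlap on FPKM is not given. With total-count scaling edgeR called 47.1% of all tested genes higher and 2.62% lower, so a higher level on that scale is common. The median log2 fold change of the 8 was 0.121, and that of all tested genes was 0.00914.

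Igfbp7 rose about 2-fold and was the clearest change in the family. Its level was 40.9, 45.5 and 50.9 CPM in replicates 1, 2 and 3 labelled wild-type and 104.1, 84.5 and 98.4 CPM in replicates 1, 2 and 3 labelled Mdr2-knockout. Even the lowest labelled knockout library was well above the highest labelled wild-type library. The log2 fold change was 1.06 (SE 0.10, edgeR adjusted p = 5.19e-05, n = 3 per group), or 2.09-fold. The call held in all 15 alternatives tried, with log2 fold changes from 0.98 to 1.36 and adjusted p-values of at most 0.000856. Igfbp7 lies on chromosome 5 from 77349240 to 77408041 (GRCm38, minus strand). The opposite-strand gene Polr2b overlaps 85 bases of it and stood at 58.7 ± 2.17 and 52 ± 0.389 CPM (SD, n = 3; edgeR adjusted p = 0.0539), a log2 fold change of -0.17 that became 0.12 under total counts; the antisense gene Gm34648 overlaps 7085 bases and is not analysed here. The strand setting of the counting is not given in the sources used here, so reads in those stretches cannot be assigned to a strand.

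IGFBP7 is made in liver largely by endothelial and stellate cells, and marker lists of both were read beside it. Of 10 stellate cell and fibroblast markers, 8 were higher and 0 lower (9 and 0 under total counts), and their summed level was 278 to 427 CPM in libraries labelled wild-type and 667 to 812 CPM in those labelled Mdr2-knockout, a ratio of means of 2.29. Of 10 endothelial markers, 3 were higher and 3 lower, with sums of 277 to 334 and 291 to 308 CPM, a ratio of 0.982. Under total counts 5 of these 10 were higher and 1 was lower. Mesothelial markers, of which 3 of 8 had enough counts to be tested and all 3 were higher, summed to 2.4 to 2.54 and 9.57 to 11.5 CPM. One of those tested, Krt7, also stands in the cholangiocyte list. Krt7 alone held 0.256 to 0.568 CPM in libraries labelled wild-type and 4.42 to 5.11 CPM in those labelled Mdr2-knockout. The mesothelial sum is therefore not separate from the cholangiocyte one. Cholangiocyte markers were higher for 9 of 9 tested and summed to 61.4 to 80.6 and 377 to 415 CPM. Of 10 macrophage and Kupffer cell markers, 6 were higher and 0 lower (8 and 0 under total counts), with a ratio of summed means of 1.42. No listed marker was at 0 counts in all 3 labelled wild-type libraries, though some were at 0 in at least 1, among them Cldn4, Cftr, Lrrn4, Upk1b and Muc16. The part of these cells in the Igfbp7 result was not tested. In bulk tissue more cells of a type and more RNA per cell cannot be told apart.

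Over the 6 libraries, the gene whose log2 CPM ran closest to that of Igfbp7 among 9457 genes of at least 5 CPM was Sparc (Pearson r = 0.9991), which encodes a collagen-binding matrix protein, and the next was the zinc finger gene Zkscan8 (r = 0.9983). Sparc itself went from 33.4 ± 4.19 to 82.7 ± 8.34 CPM (SD, n = 3). Because the groups differ, such an r mostly reflects the group difference: 449 of the genes searched reached 0.95 with Igfbp7.

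The abundance of Igfbp4 transcripts changed little, and its call depended on the scaling. It stood at 1801, 1973 and 1891 CPM in replicates 1, 2 and 3 labelled wild-type and at 1495, 1517 and 1562 CPM in replicates 1, 2 and 3 labelled Mdr2-knockout. All labelled knockout libraries were below all labelled wild-type ones on this scale, and the log2 fold change was -0.31 (SE 0.08, edgeR adjusted p = 0.0124). As shares of all counts the groups overlapped, and with total-count scaling the log2 fold change was -0.01 (edgeR adjusted p = 0.891). Its call held in the other 14 alternatives. Igfbp4 varied little between libraries of a group: its within-group SD of 0.0521 on the log2 scale stood at percentile 14.9 of the tested genes of at least 50 CPM and 6.34 of all tested genes. The genes most like it over the 6 libraries were Hbs1l (r = 0.9983), a translation factor gene, and Agt (r = 0.998), which encodes angiotensinogen of the hepatocyte.

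Igfbp2, the second most abundant member, was at 284.7, 411.5 and 287.6 CPM in replicates 1, 2 and 3 labelled wild-type. In labelled Mdr2-knockout replicates 1, 2 and 3 it was at 204.9, 289.7 and 222.6 CPM. Replicate 2 was the highest of each group, and the highest labelled knockout library lay just above the lowest 2 of the labelled wild-type. The difference of -0.46 on the log2 scale (SE 0.19) did not pass (edgeR adjusted p = 0.0964). It passed in 3 of 15 alternatives, among them DESeq2 (adjusted p = 0.0188) and edgeR without labelled Mdr2-knockout replicate 2 (adjusted p = 0.0326), and over all alternatives the adjusted p ran from 0.00339 to 0.463.

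Igfbp1 varied far more between libraries of a group than between the groups. It was at 130.3, 173.6 and 45.4 CPM in replicates 1, 2 and 3 labelled wild-type and at 62.3, 152.1 and 57.9 CPM in replicates 1, 2 and 3 labelled Mdr2-knockout. The highest labelled wild-type library held 3.83 times the lowest, and in the labelled Mdr2-knockout group the ratio was 2.63. The log2 fold change was -0.36 (SE 0.69, edgeR adjusted p = 0.728), it turned to 0.04 without labelled wild-type replicate 2, and it was -0.96 (edgeR adjusted p = 0.383) without labelled Mdr2-knockout replicate 2. With an SE of this size a 2-fold difference in either direction lies within about 2 SE of the estimate, and it is the spread between libraries that limits the comparison. The within-group SD of Igfbp1 on the log2 scale was 0.905, at percentile 99.6 among the 2909 tested genes of at least 50 CPM, whose median was 0.0935. Igfbp2 stood at percentile 93.1 of the same genes and Igf2r at 26.1.

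Some members deviated together in labelled Mdr2-knockout replicate 2. Igfbp1 and Igfbp2 were both highest in replicate 2 of each group. In labelled Mdr2-knockout replicate 2, Igfbp1 was 0.89 and Igfbp2 0.29 above its group mean on the log2 scale, while Igfbp3, Igfbp5, Igfbp6 and Igfbp7 and the partner genes Igf1 and Igfals each had their lowest value of that group there. Igfbp3 was 0.70, Igfbp5 0.55, Igfals 0.45 and Igf1 0.32 below the mean on that scale. The same library had the lowest stellate cell and fibroblast marker sum of its group, at 667 against 811.9 and 800.2 CPM. In the labelled wild-type group Igfbp3, Igfbp5, Igfals and Igf1 did not move together. In replicate 3 of that group their deviations from the mean were 0.36 for Igfbp3, -0.15 for Igfbp5, -0.07 for Igfals and -0.20 for Igf1. The share of all tested genes with their lowest or highest group value in labelled Mdr2-knockout replicate 2 is not given, so this listing has no background. The part of any shared difference between libraries was not tested, and the replicate numbers have no order.

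**Figure D2:**
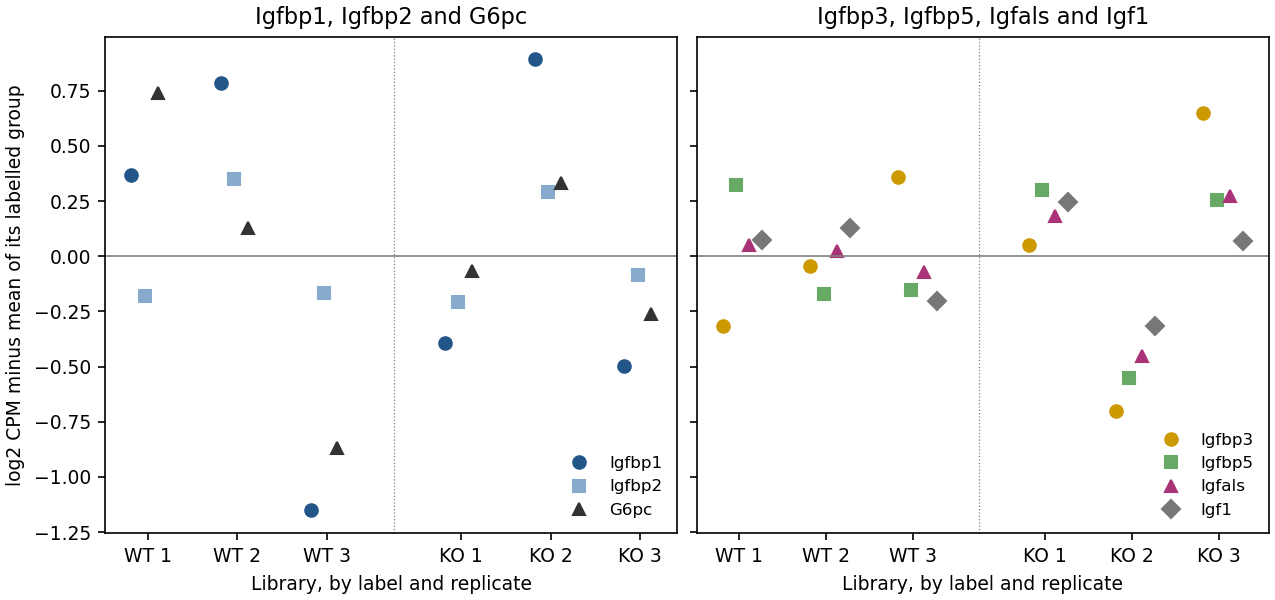
Each point is a library's log2 CPM minus the mean of its labelled group of 3, on the left for Igfbp1, Igfbp2 and G6pc and on the right for Igfbp3, Igfbp5, Igfals and Igf1. In labelled Mdr2-knockout replicate 2 the left-hand genes lie above 0 and the right-hand genes below it, and Igfbp1 falls to -1.15 in labelled wild-type replicate 3.

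Genes that share the insulin-repressed FoxO control known for Igfbp1 were read from a list of 8. Of these, 2 rose, 2 fell and 4 did not pass. Pdk4, which restrains pyruvate use, rose from 6.06 ± 1.6 to 14.9 ± 3.45 CPM (1.30 on the log2 scale, edgeR adjusted p = 0.0026), and the ubiquitin ligase gene Fbxo32 from 4.24 ± 0.641 to 5.92 ± 0.169 CPM (edgeR adjusted p = 0.0437). Klf15, a fasting-responsive transcription factor gene, fell from 325 ± 34.9 to 204 ± 32.4 CPM (edgeR adjusted p = 0.00312), and Pck1, a key enzyme gene of gluconeogenesis, from 6233 ± 928 to 3563 ± 954 CPM (SD, n = 3; edgeR adjusted p = 0.0285). The list did not move 1 way. Scaled by total counts, 3 rose and 1 fell, and Pck1 did not pass (-0.51, edgeR adjusted p = 0.0838). Calls of Pdk4 and Klf15 held in all 15 alternatives, that of Pck1 in 11 and that of Fbxo32 in 6. G6pc, the glucose 6-phosphatase gene, was at 547, 358 and 179 CPM in replicates 1, 2 and 3 labelled wild-type and at 318.5, 420.7 and 278 CPM in replicates 1, 2 and 3 labelled Mdr2-knockout. Its log2 fold change was -0.09 (edgeR adjusted p = 0.901), and 0.20 under total counts (edgeR adjusted p = 0.754). G6pc, chosen after its values were seen, had its lowest level of each group in the library where Igfbp1 was lowest. Its highest labelled wild-type level was in replicate 1, where that of Igfbp1 was in replicate 2. Like Igfbp1, Pck1 of the same list was highest in replicate 2 of each group and lowest in labelled wild-type replicate 3. In labelled Mdr2-knockout replicate 3, where Igfbp1 was lowest, Pck1 was 0.19 above its group mean on the log2 scale.

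Of 10 ATF4 stress targets, a group through which Igfbp1 can also be induced, Atf3 rose from 1.06 ± 0.44 to 4.86 ± 2.22 CPM (2.19 on the log2 scale, edgeR adjusted p = 0.00346). Sesn2 was lower (-0.46, edgeR adjusted p = 0.049), a call held in 6 of 15 alternatives and lost under total counts (-0.17, edgeR adjusted p = 0.411), and 8 did not pass. The list then held 3 higher and 0 lower genes. Of 8 hypoxia targets, 3 were lower and 0 higher: Ldha (-0.78, edgeR adjusted p = 0.000321), the angiogenic factor gene Vegfa (-0.50, edgeR adjusted p = 0.00141) and the mitophagy gene Bnip3 (-0.56, edgeR adjusted p = 0.0037). With total-count scaling only Ldha of these 3 passed (edgeR adjusted p = 0.00332), against 0.067 for Vegfa and 0.0627 for Bnip3.

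Igfbp3 and Igfbp5, the binding proteins of the ternary complex, did not pass. Igfbp3 was at 9.09, 11 and 14.6 CPM in replicates 1, 2 and 3 labelled wild-type and at 14.6, 8.66 and 22.2 CPM in replicates 1, 2 and 3 labelled Mdr2-knockout. The labelled knockout libraries held both the lowest and the highest value (log2 fold change 0.39, SE 0.39, edgeR adjusted p = 0.476). Igfbp5 was at 10.5, 7.47 and 7.57 CPM and at 13.1, 7.2 and 12.7 CPM in the same order. Here too replicate 2 of the labelled knockout was the lowest of all 6 (0.36, SE 0.25, edgeR adjusted p = 0.28). Without that library Igfbp5 passed, at a log2 fold change of 0.59 (edgeR adjusted p = 0.0301).

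Igfbp6 was close to the detection limit and could not be tested in the main comparison. It had 5, 2 and 4 counts in replicates 1, 2 and 3 labelled wild-type and 30, 5 and 11 in replicates 1, 2 and 3 labelled Mdr2-knockout. The first labelled knockout library held most of these counts, and the groups met at 5 counts. Summed over libraries the ratio was 3.33, with an exact 95% interval of 1.7 to 7.13 that covers counting error only. Fitted without the low-count filter, Igfbp6 had a log2 fold change of 1.69 (edgeR adjusted p = 0.0757). It entered the test without labelled Mdr2-knockout replicate 2 and passed there (edgeR adjusted p = 0.0296), and it entered but did not pass without each labelled wild-type library in turn (edgeR adjusted p of 0.129 to 0.233).

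As neighbours in the genome, some of the members form convergent pairs. Igfbp1 (chromosome 11, 7197782 to 7202546, plus strand) and Igfbp3 (7206086 to 7213923, minus strand) point at each other with 3539 bases between their ends. Igfbp2 (chromosome 1, 72824503 to 72852474, plus strand) and Igfbp5 (72857932 to 72874884, minus strand) do so with 5457 bases between. In both pairs the plus-strand gene had a negative and the minus-strand gene a positive log2 fold change (Igfbp1 -0.36 and Igfbp3 0.39, Igfbp2 -0.46 and Igfbp5 0.36), and none of these 4 passed the test. In the first pair the sign of Igfbp1 was not stable, while Igfbp3 stayed positive in all 15 alternatives. Igfbp1 turned to 0.04 without labelled wild-type replicate 2, and Igfbp3 dropped to 0.01 without labelled Mdr2-knockout replicate 3. No annotated gene overlaps any of them.

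Igfbp7 took a larger share of the binding protein mRNA pool in each library labelled Mdr2-knockout than in any labelled wild-type. Of the summed FPKM of the 7 genes, Igfbp7 took 4, 3.73 and 5.07% in replicates 1, 2 and 3 labelled wild-type. In labelled Mdr2-knockout replicates 1, 2 and 3 it took 12, 8.6 and 11%. The groups did not overlap: the means were 4.27% ± 0.706 and 10.5% ± 1.75 (SD, n = 3), and the two-sided exact permutation test gave p = 0.1, the smallest that 3 against 3 allows (0.467 adjusted over 7 shares). These shares compare genes within a library and do not depend on the scaling between libraries. Igfbp4 took 65.6% ± 4.93 and 62.5% ± 4.12, Igfbp2 21.2% ± 2.29 and 18.3% ± 2.18, and Igfbp1 8.38% ± 4.18 and 7.75% ± 4 (SD, n = 3), each with overlapping groups. Igfbp3, Igfbp5 and Igfbp6 each took at most 0.749% in any library. The summed FPKM of the 7 genes overlapped, at 744.8 to 892.3 in libraries labelled wild-type and 794.1 to 888.8 in those labelled Mdr2-knockout.

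**Figure D3:**
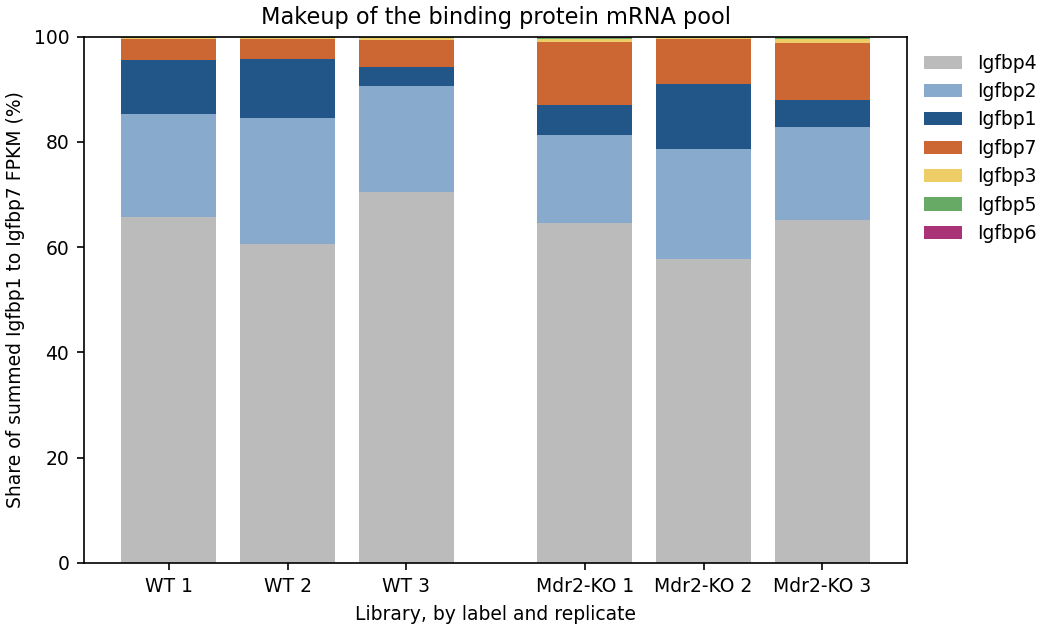
Each bar is a library and its segments are the percent of summed Igfbp1 to Igfbp7 FPKM taken by each gene. The orange Igfbp7 segment covers 8.6% to 12% in the labelled Mdr2-knockout and 3.73% to 5.07% in the labelled wild-type libraries, while Igfbp4 fills at least 57.8% of every bar.

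Igf1r was low in all 6 libraries, and its difference between the groups did not pass the test. It had 45, 52 and 44 counts in replicates 1, 2 and 3 labelled wild-type and 64, 88 and 129 in replicates 1, 2 and 3 labelled Mdr2-knockout, which equal 2.86, 3.32 and 2.78 CPM and 3.17, 4.43 and 6.7 CPM. The third labelled knockout library was the highest. The first lay within the labelled wild-type range in TMM-scaled CPM but above it in FPKM (0.272 against 0.193 to 0.228). The log2 fold change was 0.67 (SE 0.27, edgeR adjusted p = 0.0744). It passed with total-count scaling (0.97, edgeR adjusted p = 0.0124) and without labelled Mdr2-knockout replicate 1 (0.89, edgeR adjusted p = 0.0232). Igf1r lies on chromosome 7 from 67952827 to 68233668 (GRCm38, plus strand).

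Igf2r differed little. It stood at 87.2, 88 and 92.8 CPM in replicates 1, 2 and 3 labelled wild-type and at 77, 84.1 and 85 CPM in replicates 1, 2 and 3 labelled Mdr2-knockout. The labelled knockout values were the lower 3 on this scale, but the difference of -0.12 on the log2 scale (SE 0.07) did not pass (edgeR adjusted p = 0.182) and turned to 0.17 with total counts (edgeR adjusted p = 0.0615). The antisense transcript gene Airn overlaps 32.5% of Igf2r (chromosome 17, 12682406 to 12769664, minus strand) and is not analysed here. Reads from the shared stretch cannot be assigned to a strand.

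Ratios of the receptor genes to one another within a library did not overlap between the groups. The FPKM ratio of Igf1r to Insr, the insulin receptor gene, was 0.0102 ± 0.000735 in libraries labelled wild-type and 0.0205 ± 0.00734 in those labelled Mdr2-knockout (SD, n = 3). That of Igf2r to M6pr, the smaller mannose 6-phosphate receptor gene, was 0.249 ± 0.0134 and 0.215 ± 0.013, and that of Igf1r to Igf2r was 0.0231 ± 0.00272 and 0.0396 ± 0.0133. Each of these 3 ratios had a two-sided exact permutation p of 0.1, the smallest possible (0.167 adjusted over the 5 ratios tested). Igf1r is the numerator of 2 of these 3 ratios, which are therefore not separate results. By themselves Igf1r, Igf2r and M6pr also did not overlap on FPKM. The other 2 ratios overlapped: that of summed Igfbp1 to Igfbp6 to Igf1 was 14.8 ± 1.24 and 14.7 ± 4.32 (exact permutation p = 0.9), and that of Igfbp1 to Igfbp2 was 0.392 ± 0.185 and 0.411 ± 0.161 (exact permutation p = 1).

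Among the ligands and the acid-labile subunit, Igfals fell, Igf2 rose from a trace and Igf1 did not pass. Igfals was at 152.5, 149.7 and 140 CPM in replicates 1, 2 and 3 labelled wild-type and at 85.4, 54.9 and 90.9 CPM in replicates 1, 2 and 3 labelled Mdr2-knockout. Each labelled knockout library was below each labelled wild-type library (-0.94 on the log2 scale, SE 0.18, edgeR adjusted p = 0.00865), and the call held in all 15 alternatives, total-count scaling included (-0.64, edgeR adjusted p = 0.0287). Hepatocyte markers moved the same way, with 7 of 10 lower, 0 higher and a ratio of summed means of 0.609, and under total counts 6 were lower and 2 higher (Cps1 and Ass1). Their part in the Igfals result was not tested. Igf1 was at 521.7, 542.3 and 431.2 CPM and at 481, 326 and 426.3 CPM in the same order, with overlapping groups (-0.28, SE 0.15, edgeR adjusted p = 0.17), and its log2 fold change was 0.02 with total-count scaling. Igf2, the fetal ligand gene, had 18 counts summed over libraries labelled wild-type and 59 over those labelled Mdr2-knockout, a ratio of 2.61 with an exact 95% counting interval of 1.52 to 4.7 (edgeR adjusted p = 0.0411). Its call was lost in 6 of 14 alternatives, with adjusted p-values up to 0.137, among them when replicate 1 (0.137) or 3 (0.0878) labelled wild-type or replicate 2 (0.0803) or 3 (0.132) labelled Mdr2-knockout was left out.

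**Figure D4:**
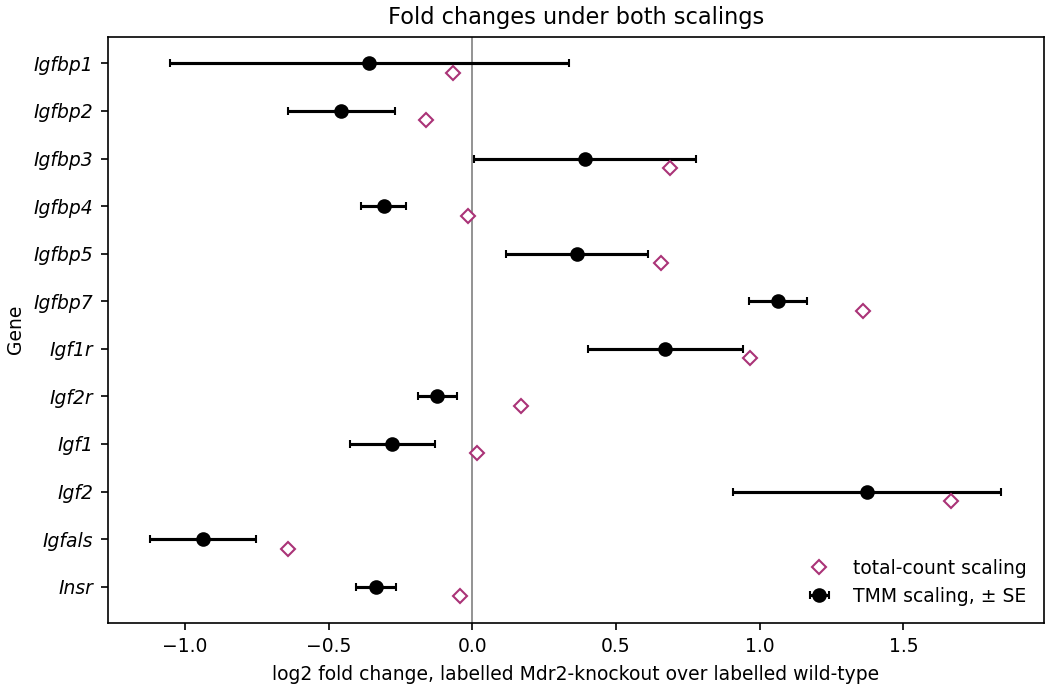
Log2 fold change of the labelled Mdr2-knockout over the labelled wild-type libraries for the 8 tested members and for Igf1, Igf2, Igfals and Insr, as filled points with SE bars (TMM scaling) and open diamonds (total-count scaling). Igfbp7, at 1.06 and 1.36, and Igfals, at -0.94 and -0.64, stay on the same side and pass under both scalings, while Igf2r and Igf1 cross 0.

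More genes of receptor signalling fell than rose on the TMM scale. Of 20 tested genes of insulin and IGF receptor signalling, 2 rose, 8 fell and 10 did not pass, with a median log2 fold change of -0.174. Over all tested genes 20.9% were called higher and 16.3% lower. With upper-quartile scaling 5 of the 20 fell. Grb10, an adaptor that restrains both receptors, rose from 2.9 ± 0.267 to 7.4 ± 1.53 CPM (SD, n = 3; log2 fold change 1.35, edgeR adjusted p = 0.000734). Among the lower genes were Foxo1 (-0.70, edgeR adjusted p = 0.00629) and Foxo3 (-0.36, edgeR adjusted p = 0.00682), transcription factors that insulin and IGF signalling keep out of the nucleus. Irs1, the receptor substrate gene (-0.52, edgeR adjusted p = 0.0104), Pik3r1, a regulatory subunit gene of PI 3-kinase (-0.39, edgeR adjusted p = 0.00183), and Insr (-0.34, edgeR adjusted p = 0.00424) were lower too. Scaled by total counts, 3 of the 20 rose and 1 fell, against 47.1% higher and 2.62% lower over all tested genes. Foxo1 kept its call there (-0.41, edgeR adjusted p = 0.0306), and Insr (-0.04), Pik3r1 (-0.10), Foxo3 (-0.07) and Irs1 (-0.23) did not pass.

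Of 9 listed proteases of binding proteins and their inhibitors, 4 had enough counts to be tested, of which 2 rose and 0 fell. Mmp7, a matrix protease of epithelium, rose from 0.191 ± 0.23 to 14.2 ± 3.15 CPM (SD, n = 3; 6.17 on the log2 scale, edgeR adjusted p = 5.75e-05). With 2, 7 and 0 counts in replicates 1, 2 and 3 labelled wild-type, that fitted difference depends on the prior count of the model. Htra1, a secreted serine protease, rose from 1.5 ± 0.193 to 4.04 ± 0.827 CPM (1.42, edgeR adjusted p = 0.00153). Pappa, the pappalysin that cleaves IGFBP4, had 4 counts summed over libraries labelled wild-type and 38 over those labelled Mdr2-knockout. It was left out of the test by the low-count filter, and the ratio was 7.57 with an exact 95% counting interval of 2.72 to 29.2. Under total counts 3 of the 4 tested rose and 0 fell.

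Of 5 tested IGFBP-related genes, whose products share the binding domain, the matricellular gene Ccn1 rose from 7.75 ± 2.52 to 14.6 ± 0.9 CPM (SD, n = 3; 0.91, edgeR adjusted p = 0.00702) and 4 did not pass, whereas under total counts 2 of the 5 rose. In the growth hormone axis, which drives hepatic Igf1 and Igfals, 1 of 7 tested genes was higher. None was lower here, but 1 was with DESeq2, with limma-voom, with no low-count filter and in 3 of the fits that left out 1 library. The higher gene was Stat5a (0.39, edgeR adjusted p = 0.0181), a signal transducer. Its call was lost when replicate 3 labelled wild-type (adjusted p = 0.0667) or replicate 2 labelled Mdr2-knockout (0.0692) was left out. In the mannose 6-phosphate sorting path that IGF2R serves, 1 of 4 was higher: Gnptab, which makes the mannose 6-phosphate tag, rose from 12 ± 0.25 to 18 ± 0.562 CPM (SD, n = 3; 0.59, edgeR adjusted p = 0.000909) in all 15 alternatives, and M6pr was called higher as well under total counts (0.38, edgeR adjusted p = 0.00139). Igf2bp2, which encodes a protein that binds Igf2 mRNA, was higher (1.32, edgeR adjusted p = 0.02), a call lost without labelled wild-type replicate 2 (0.0736) or 3 (0.0539) or labelled Mdr2-knockout replicate 1 (0.0807) or 2 (0.0638). Its relative Igf2bp3, an oncofetal gene, had 0 counts in libraries labelled wild-type and 21 in those labelled Mdr2-knockout.

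Over the 69 tested pathway genes outside the 9 members, 12 rose, 15 fell and 42 did not pass, a called share near the 37.1% of all tested genes, with a median log2 fold change of -0.117. Scaled by total counts, 19 rose and 4 fell. The whole table turned likewise: total counts gave 47.1% of all tested genes higher and 2.62% lower.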

How the data were processed

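The authors deposited raw read counts per gene symbol for 6 mouse liver libraries and, per the file headers, FPKM in the same columns. The deposited FPKM equal the counts divided by each library's total and a fixed length per gene, so they are no independent measurement. Tools named per the submitters' processing notes are HISAT2, Bowtie2, StringTie, Cufflinks, HTSeq, DESeq, SAMtools and Trimmomatic, with the mm10 build. What each did, its version, the annotation and the strand setting were not given in the sources used here. Columns M were read as Mdr2-knockout and N as wild-type, the latter by elimination, so every direction rests on that reading; 0 columns were left without a sample.

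Counts were tested with edgeR 4.0.16 (R 4.3.3): filterByExpr (minimum count 10, minimum total 15), TMM scaling, a robust quasi-likelihood fit with group as the only term, and Benjamini-Hochberg adjustment over 12612 genes, threshold 0.05. The SE is the log2 fold change divided by the square root of its F value. Shares and ratios of FPKM were tested by two-sided exact permutation over the 3 against 3 libraries. The script was tested on simulated data. The alternatives were DESeq2 1.42.0, limma-voom 3.58.1, scaling by RLE, by upper quartile or by total counts, 2 other filters, a non-robust fit, a replicate block and leaving out each library; shares and ratios were also taken from raw counts and without Igfbp7.

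The members, gene lists and marker lists were chosen with earlier results of these data known. The text names all 9 members, Igf1, Igf2, Igfals and Insr, up to 6 called genes of each list by smallest p, and the 2 genes most like each called member by Pearson r. Abcb4, G6pc, Polr2b, Gm34648, Airn, M6pr, Pappa, Igf2bp3, the shared marker Krt7 and marker genes at 0 stand outside that rule. G6pc, Pappa and Igf2bp3 were chosen after their values were seen. Gene positions are from GENCODE M21 (GRCm38), and promoters from RefSeq (GRCm38.p6), where all 9 members matched. No library was a repeat of another: within groups, counts differed with a chi-square per degree of freedom from 16.9 upward. A floor of 3 counts equals 0.149 to 0.192 CPM in a library.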

Additional observations from a re-analysis of the deposited data

How the results depend on the processing

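With total-count scaling 5943 genes were higher and 330 lower, against 2634 and 2051 with TMM; 2 members were higher and 0 lower; and of the other pathway genes 19 were higher and 4 lower. DESeq2 called 2 members lower. No other scaling, filter or test moved these counts of members, genes or pathway genes by more than 1.5 times. Leaving out 1 library at a time gave 1 to 3 members higher and 1 to 2 lower: 2 were higher without labelled Mdr2-knockout replicate 1, and 3 were higher and 2 lower without its replicate 2. It gave 2092 to 2603 genes higher and 1449 to 2006 lower, and 8 to 12 pathway genes higher and 11 to 16 lower. The cause of these moves was not tested, apart from the shift of scale that total counts make.

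Some directions turned. The log2 fold change of Igfbp1 ran from -0.958 to 0.0400 when 1 library was left out, the last of these without labelled wild-type replicate 2. With total counts those of Igf2r and Igf1 were 0.17 and 0.0169. The difference in the Igfbp1 share, -0.625 percentage points, ran from -3.01 to 0.878 when 1 library was left out. That of the Igfbp4 share, -3.1 points, became 1.39 without Igfbp7 in the sum. The difference in the ratio of summed Igfbp1 to Igfbp6 to Igf1, -0.113, ran from -2.54 to 1.61, and that of Igfbp1 to Igfbp2, 0.0197, from -0.0867 to 0.083. The differences in the Igfbp7 share (5.53 to 7.24 points) and in the ratios of Igf1r to Insr (0.00626 to 0.0134), Igf1r to Igf2r (0.00926 to 0.0222) and Igf2r to M6pr (-0.0413 to -0.0264) kept their sign without each library.

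The replicate numbers are shared by the labels, but same-numbered libraries did not deviate together (r of 0.0842, 0.0449 and -0.0759 across genes), and not each library correlated best with its own number. With a replicate block 1 member was higher and 2 were lower, Igfbp2 being added (adjusted p = 0.00339), and 2576 genes were higher and 1992 lower. In the growth hormone axis 2 genes were lower with that block, against 0 in the main fit. Leaving Igfbp7 out changes no ratio by construction and was run for the shares only. Depth limits Igfbp6, Igf2, Pappa and Igf2bp3, which held at most 30 counts in any library.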
